A study of Mus musculus with 8 samples.

Results

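The genes described here are those of the mouse translation initiation factors, chosen by name. A gene was a member when the platform annotation gave at least 1 of its probe sets a single gene symbol, and that symbol was Eif followed by a digit. This rule gave 51 genes on 55 probe sets, out of 22180 genes and 41345 probe sets on the array. For each gene 1 probe set was used, that with the highest mean level, and the others are given where a gene had several. No measured value other than that mean entered the rule.

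RNA came from CD3 T cells of C57BL/6J mice, females aged 8 weeks per the study, obtained by negative selection from the spleen and lymph nodes. The cells were treated with a low dose of concanavalin A (ConA, a plant lectin that binds glycoproteins on the T cell surface) on plastic coated with PLL (poly-L-lysine, a positively charged polymer to which cells stick), with ConA alone, or with PLL alone, or were left naive. Treatment lasted 3 h, and the cells for 24 h were then washed and cultured for a further 21 h. The design asks whether ConA acts otherwise on cells that are held on a surface. The 8 groups were ConA+PLL, ConA and PLL at 3 h, naive cells at 0 h, and ConA+PLL, ConA, PLL and naive cells at 24 h. The label of the first naive sample gives its time as control, which was read as 0 h.

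Each group held 1 Affymetrix Mouse Gene 2.0 ST array, so no difference here has a replicate check and none was tested. Values are log2 expression levels, a difference is the first named array minus the second, and a gene is called higher or lower, or said to have risen or fallen, where the difference reached 1.5-fold (0.58 on the log2 scale), the size the study used to select genes for a heat map. All comparisons within a time share arrays, and at 3 h the untreated array is the one from 0 h, so that treatment and 3 h of culture cannot be told apart there. The array medians over all probe sets ran from 3.53 to 3.69. The T cell label was borne out by 7 of 8 listed T cell markers that had a probe set of their own, at 7.39 (Thy1, naive cells at 0 h) to 11.10 (Cd3e, ConA+PLL at 24 h), while 10 listed B cell, monocyte, NK cell and dendritic cell markers that reached the filter did not exceed 5.51 (Cd79b, ConA+PLL at 24 h). Because RNA was pooled from many cells, fewer cells that express a gene and less of its RNA per cell cannot be told apart.

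Translation initiation brings the ribosome to the start codon of an mRNA. eIF4E binds the mRNA cap, eIF4G is the scaffold that joins it to the RNA helicase eIF4A and to eIF3, and eIF2 carries the initiator tRNA to the small ribosomal subunit, with eIF1, eIF1A, eIF3 and eIF5 around it. eIF5B then helps to join the large subunit. The process is held back by 4E-BP proteins, which mTORC1 turns off by phosphorylation, and by the eIF2 kinases, which block the exchange factor eIF2B in the integrated stress response. Resting T cells make little protein, and activation is known to raise their rate of translation.

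Of the 51 members, 49 passed a filter that asked for a highest value at or above the median of the whole table (3.62). The exceptions were Eif2s3y, the Y-linked eIF2 gamma subunit gene, at 1.69 to 2.49, and Eif4e1b, an eIF4E relative of the germ line, at 2.31 to 2.81. As a mark of dim signal, 4.10 was used, below which the highest levels of 95% of 1390 olfactory and vomeronasal receptor genes lay, genes that T cells are not known to use. The mark was chosen after the values were seen. 43 members lay above it on every array. The 6 others that passed the filter were Eif2b4, Eif4a3, Eif4a3l1, Eif2ak2, Eif2ak4 and Eif2c5, and Eif2c5 did not reach it on any array. By RefSeq, Eif2c5 is a long noncoding RNA gene with the older name Ago5 and Eif1-ps3 is a pseudogene, so these are members by symbol only, and 49 of the 51 are protein coding. Eif1, Eif2s1, Eif2s3x, Eif3g, Eif3j2, Eif4g1 and Eif4ebp3 have no single-symbol probe set of their own in the annotation used and were not analysed here. Probe sets that carry a member's symbol beside another gene's, 9 in all, were left out.

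Over the 8 arrays the levels of the passing members spanned 0.16 (Eif4g2, an eIF4G relative) to 1.73 (Eif4a2, an eIF4A helicase), with a median span of 0.77, against 0.67 over all 13428 genes that passed. The ConA+PLL arrays stood at the top most often. At 24 h the ConA+PLL array held the highest of the 4 levels for 35 of 49 members (71.4%), against 41.7% of all genes. Among the 3 h arrays and the 0 h array it was highest for 24 members (49.0%), against 25.0% of all genes, and the PLL array was lowest for 23 members (46.9%), against 24.2%. With each array centred on its median, the ConA+PLL array was highest for 26 members at 24 h and 30 at 3 h, against 24.6% and 33.1% of all genes.

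**Figure D1:**
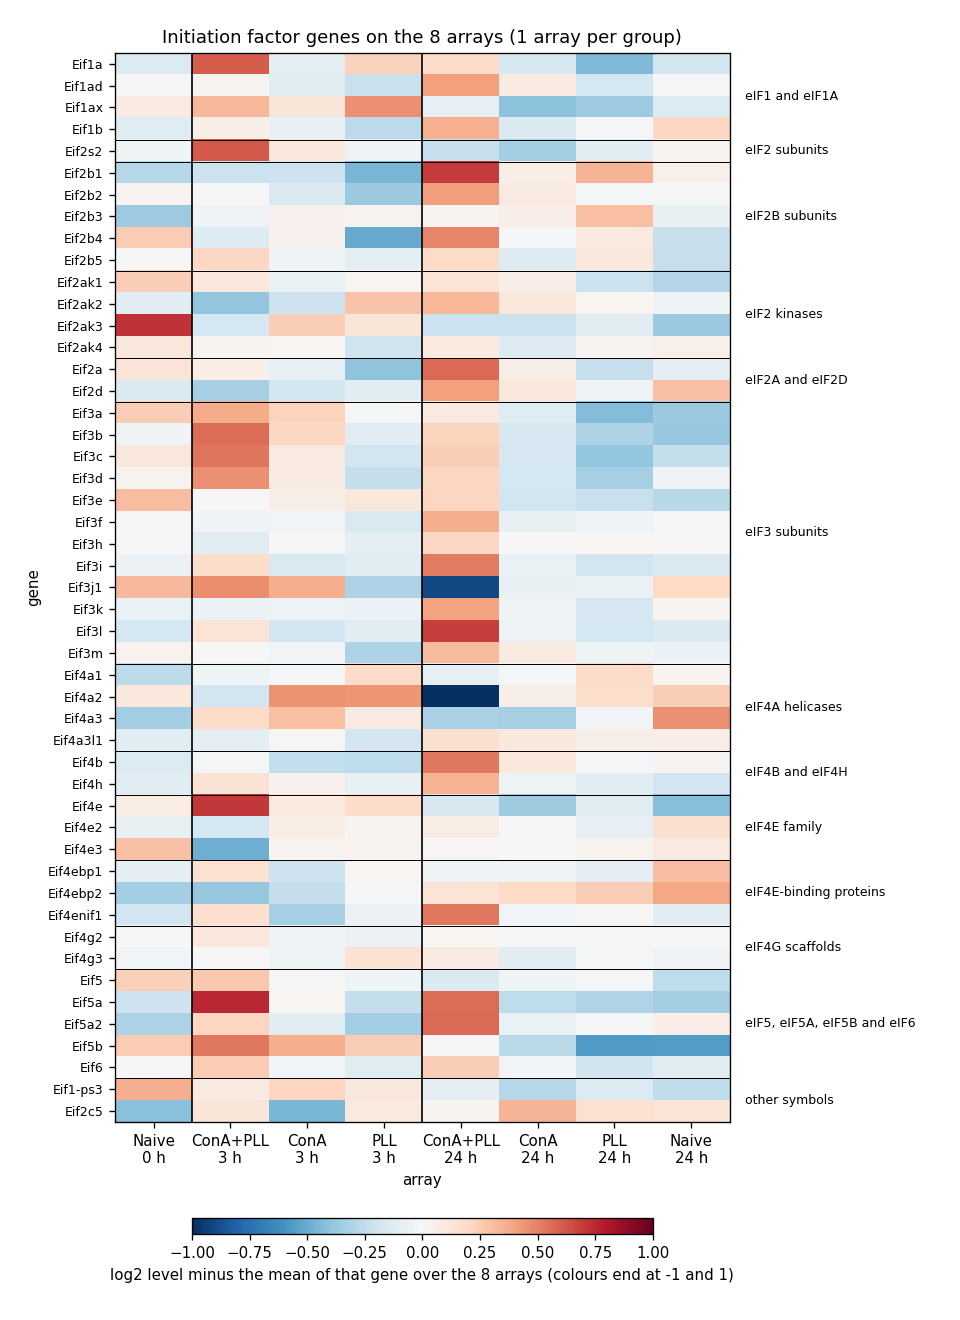
Log2 level of each of the 49 passing members (rows, grouped by complex) on each of the 8 arrays (columns, 1 array per group), as the difference from that gene's mean over the arrays. Most eIF3, eIF2B and eIF5A rows are red under ConA+PLL at 24 h, while Eif4a2 and Eif3j1 have their lowest level there.

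At 24 h, 5 initiation factor genes were higher in ConA+PLL cells than in ConA cells, and 2 were lower. 42 of 49 members lay above 0 in ConA+PLL minus ConA (61.6% of all genes did), with a median of 0.27 against 0.08 for all genes. The 5 that rose are 10.2% of the members, against 5.19% of all genes. They were Eif5a (0.82), Eif3l (0.74), Eif5a2 (0.64), Eif2b1 (0.63) and Eif3i (0.59). 2 members (4.08%, against 1.95% of all genes) fell, Eif4a2 by 1.34 and Eif3j1 by 0.83. With each array centred on its median over the filtered genes, the median of all genes was -0.05 and that of the members 0.14, and 2 members rose (Eif5a and Eif3l) and 2 fell. The 7 T cell markers lay above 0 in ConA+PLL minus ConA as well (median 0.23, 0 past 1.5-fold). So did 2 of 2 B cell markers (0.19 and 0.50) and 4 of 4 monocyte markers (0.01 to 0.43). The 2 of 2 NK cell markers were below 0 (-0.42 and -1.05), and the 2 dendritic cell markers lay near 0 (Itgax 0.01 and Xcr1 -0.02). All these NK and dendritic cell markers stayed below the mark of dim signal on every array. So did the monocyte markers Csf1r (0.25) and Itgam. Klrb1c (-1.05) passed the filter only through its level in ConA cells at 24 h (3.69). The monocyte marker Itgam (0.43) passed it only through ConA+PLL cells at 24 h (3.74). The part of these markers in the members' shift was not tested.

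Against PLL cells at 24 h, 37 members lay above 0 (59% of all genes did) and the median was 0.36 (0.07 for all genes). 8 members rose (16.3%, against 6.58% of all genes), led by Eif3l (0.87), Eif5a (0.86) and Eif2a (0.80), and the same 2 members fell (background 2.21%). Against naive cells at 24 h, 39 members lay above 0 (60.1% of all genes) and the median was 0.37 (0.08 for all genes). 8 members rose (16.3%, against 6.7%), led by Eif5a (0.90), Eif3l (0.84) and Eif2b4 (0.72, a dim gene), and 3 fell (6.12%, against 2.57%), with Eif4a2 at -1.53, Eif3j1 at -1.10 and the dim Eif4a3 at -0.78. Centring left 3 and 2 members higher in these comparisons. The 7 T cell markers lay above 0 in both (medians 0.29 and 0.26). Of the 10 markers of other cell types, 5 lay above 0 against PLL cells, with Cd79b at 0.65. Against naive cells 7 did, with Cybb at 0.95, Lyz2 at 0.56, Itgam at 0.54 and Klrb1c at -0.66. Itgam is in both counts and passed the filter only through ConA+PLL cells at 24 h, which favoured a place above 0. Klrb1c lay below the filter level in ConA+PLL (2.63) and naive cells (3.29). The part of these markers was not tested. Few members differed by 1.5-fold between ConA or PLL cells and naive cells at 24 h. In ConA minus naive 29 members lay above 0 (52.9% of all genes), the median was 0.06 and 0 members rose (background 1.36%), while 1 (Eif4a3) fell (background 2.06%). In PLL minus naive 20 lay above 0 (50.3%), the median was -0.02 and 0 members rose or fell (backgrounds 1.01% and 0.946%).

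At 3 h Eif5a led each comparison of ConA+PLL with the other arrays, and 3 to 6 members were higher. ConA+PLL minus ConA had a median of 0.14 (-0.02 for all genes) and 31 of 49 members above 0 (47.1% of all genes), with 3 members higher (6.12%, against 3.54%), Eif5a (0.74), Eif1a (0.70) and Eif4e (0.60), and 1 lower (2.04%, against 5.5%), Eif4a2 (-0.64). ConA+PLL minus PLL had a median of 0.23 (-0.07 for all genes) and 34 members above 0 (42.8%), with 6 higher (12.2%, against 6.09%), namely Eif5a (0.99), Eif3j1 (0.77), Eif3c (0.72), Eif3d (0.70), Eif3b (0.67) and Eif2s2 (0.65). 2 were lower (4.08%, against 8.7%), the dim Eif2ak2 (-0.68) and Eif4a2 (-0.63). Against naive cells at 0 h the median was 0.13 (-0.06 for all genes) and 32 members lay above 0 (42.7%). There, 5 were higher in ConA+PLL cells (10.2%, against 4.63%), Eif5a (0.96), Eif1a (0.74), Eif2s2 (0.65), Eif4e (0.63) and Eif3b (0.59), and 2 were lower (4.08%, against 6.35%), Eif2ak3 (-0.90) and Eif4e3 (-0.78). Cell type markers differed between these arrays too, though several of them were dim. Of the 10 markers of other cell types, 3 lay above 0 against ConA, 2 against PLL and 1 against naive cells at 0 h, with Ncr1, an NK cell marker, at -0.86, -0.60 and -1.12, the monocyte marker Lyz2 at -0.76 against ConA and -0.64 against naive cells, Csf1r at -0.59 against naive cells and Cd79b at -0.67 against PLL cells. Ncr1 and Csf1r stayed below the mark of dim signal on every array, and Lyz2 (3.68) and Cd79b (3.84) were below it in ConA+PLL cells. Of the 7 T cell markers, 3, 3 and 5 lay above 0, with Cd3e at 0.69 against PLL cells, and the part of all these in the comparisons was not tested.

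With ConA alone or PLL alone, few members differed by 1.5-fold at 3 h. ConA at 3 h minus naive at 0 h had a median of -0.02 and 21 members above 0 (45.2% of all genes), with 1 member higher (the dim Eif4a3, 0.65, background 2.65%) and 0 lower (background 2.38%). PLL at 3 h minus naive at 0 h had a median of -0.08 and 19 above 0 (50.1%), with 0 higher (background 3.49%). There 3 were lower (6.12%, against 2.88%), the dim Eif2b4 (-0.76), Eif3j1 (-0.63) and Eif2ak3 (-0.60). Eif2b4 lay below the mark of dim signal on both arrays (3.31 and 4.07). The PLL array at 3 h also differed from its neighbours in heat shock genes, which were looked at after these values were seen. Hspa1b, an inducible HSP70, stood at 6.95 in ConA+PLL and 8.08 in ConA cells at 3 h, but at 3.35 in PLL cells, against 8.47 in naive cells at 0 h, and its part in the comparisons with those arrays was not tested.

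**Figure D2:**
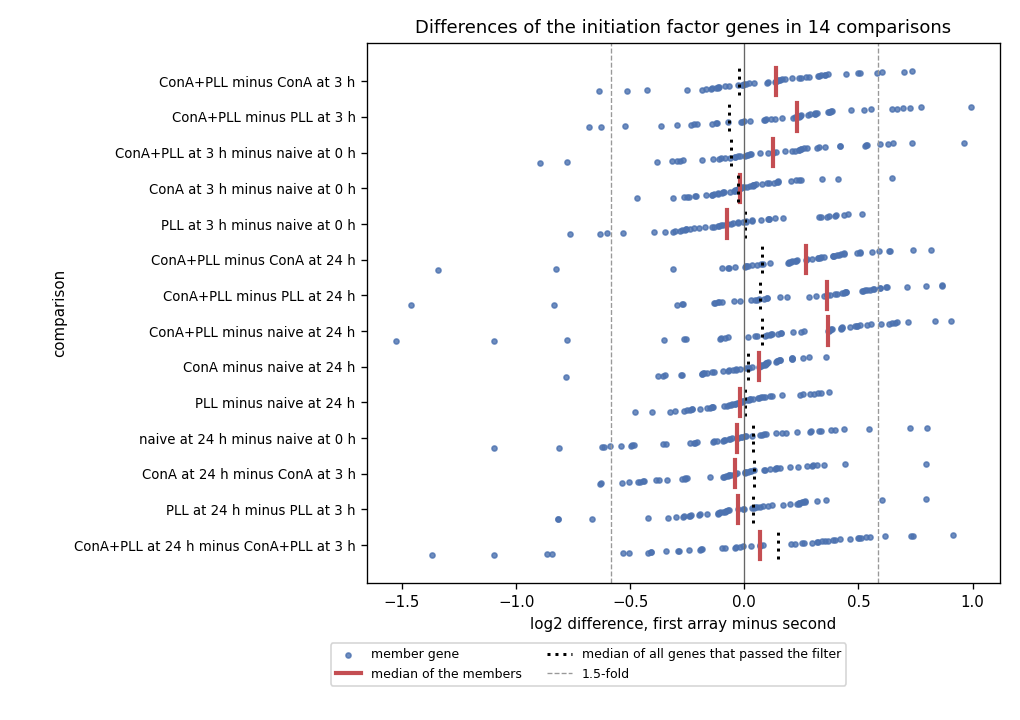
Log2 differences of the 49 passing members (points) in 14 comparisons between arrays, with the median of the members (red bar), the median of all 13428 passing genes (dotted) and 1.5-fold (dashed). The members' median lies above that of all genes in all 6 comparisons of ConA+PLL with another array of its time or with naive cells at 0 h, from 0.13 against -0.06 to 0.37 against 0.08.

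The effect of ConA on PLL and off it was set side by side by taking the difference between ConA and naive cells from that between ConA+PLL and PLL cells, which uses each array once. At 3 h its median over the members was 0.25, where that of all genes was -0.02, and 35 of 49 members lay above 0 (47.9% of all genes). At 24 h its median was 0.30, where that of all genes was 0.08, and 39 lay above 0 (59.4%). At 24 h, 10 members were past 1.5-fold upward (20.4%, against 8.33% of all genes) and 1, Eif4a2 at -1.28, downward (background 4.1%). Eif5a (0.78) and Eif3l (0.77) led. At 3 h, 6 were past it upward (12.2%, against 8.04%), led by Eif5a (0.77), Eif3c (0.75) and Eif3j1 (0.74), and 2 downward (background 11.5%).

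eIF3 is the largest of the factors, a scaffold of many subunits on the small ribosomal subunit, and 12 of its 14 listed subunit genes were measured. At 24 h, 11 of the 12 were higher than 0 in ConA+PLL minus ConA, minus PLL and minus naive, with medians of 0.40, 0.52 and 0.43, also under quantile normalization and centring (11 each time). Of all genes, 61.6%, 59% and 60.1% lay above 0 there. Eif3j1 was the exception. Past 1.5-fold against ConA cells were Eif3l and Eif3i upward (2 of 12, against 5.19% of all genes) and Eif3j1 downward (1 of 12, against 1.95%). Eif3k (0.44), Eif3f (0.44), Eif3c (0.42) and Eif3e (0.41) were not past it.

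Eif3l, one of the e, k and l subunits that lie together in eIF3, stood at 8.13 in ConA+PLL cells at 24 h, at 7.39 in ConA cells and at 7.26 in PLL cells, against 7.29 in naive cells. At 3 h it was 7.57 in ConA+PLL, 7.24 in ConA and 7.33 in PLL cells, against 7.26 in naive cells at 0 h. The 24 h ConA+PLL array was the high one and the other 7 lay within 7.24 to 7.57. Eif3b, the scaffold of the module of the b, g and i subunits, was instead highest at 3 h, with 8.32 in ConA+PLL, 7.96 in ConA and 7.65 in PLL cells, against 7.72 in naive cells at 0 h. The 24 h levels were 7.98 in ConA+PLL, 7.59 in ConA and 7.45 in PLL cells, against 7.38 in naive cells. Eif3a, Eif3c and Eif3d also had the highest of their 8 levels on the ConA+PLL array at 3 h.

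Eif3j1 encodes the loosely bound j subunit, which acts at the mRNA channel of the small subunit. It stood at 5.00 in ConA+PLL cells at 24 h, its lowest level, and at 5.83 in ConA and 5.84 in PLL cells, against 6.10 in naive cells. At 3 h it was 6.37 in ConA+PLL, 6.27 in ConA and 5.60 in PLL cells, against 6.23 in naive cells at 0 h. The ConA+PLL level was thus the highest of the 8 arrays at 3 h and the lowest at 24 h, a fall of 1.37 between those times.

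**Figure D3:**
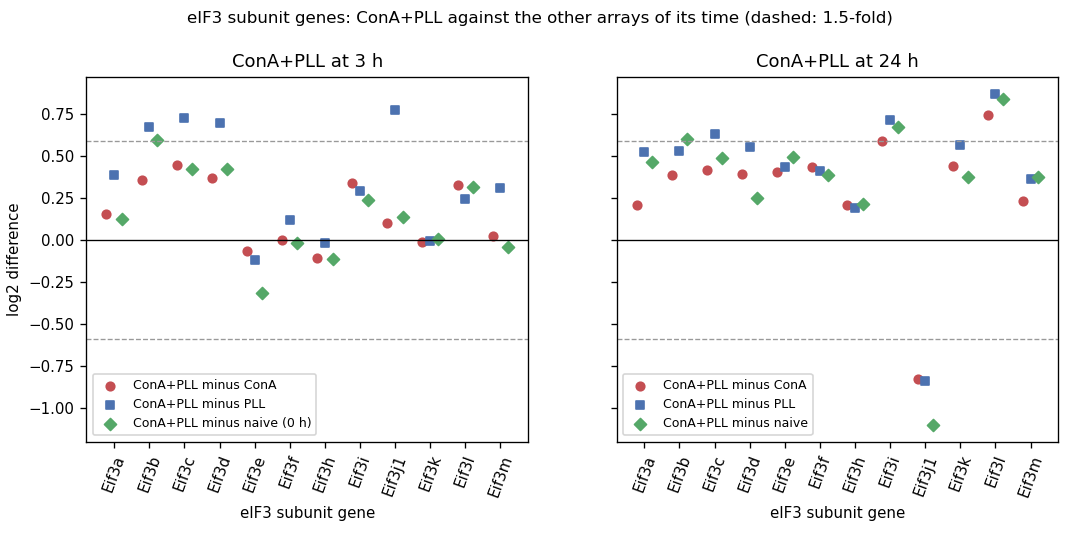
Log2 differences of the 12 measured eIF3 subunit genes between ConA+PLL and the ConA (circles), PLL (squares) and naive (diamonds) arrays, at 3 h (left, naive array from 0 h) and at 24 h (right), with 1.5-fold dashed. At 24 h all but Eif3j1 lie above 0 in each comparison, from 0.19 (Eif3h against PLL) to 0.87 (Eif3l against PLL), and Eif3j1 lies at -0.83, -0.83 and -1.10.

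eIF4A unwinds structure ahead of the small subunit. It has a major form, Eif4a1, and a close paralog, Eif4a2, while Eif4a3 belongs to the exon junction complex that marks spliced mRNA. The promoters of the paralogs that differed here are shown with that of Eif3l, the eIF3 gene furthest above 0 in ConA+PLL minus ConA at 24 h, as the 250 bases before the first listed start of each gene (RefSeq, GRCm38.p6, gene strand, 5′ to 3′). Capitals mark matches to any of 8 motifs searched on both strands.
Eif4a1, chr11:69672424-69672673, minus strand: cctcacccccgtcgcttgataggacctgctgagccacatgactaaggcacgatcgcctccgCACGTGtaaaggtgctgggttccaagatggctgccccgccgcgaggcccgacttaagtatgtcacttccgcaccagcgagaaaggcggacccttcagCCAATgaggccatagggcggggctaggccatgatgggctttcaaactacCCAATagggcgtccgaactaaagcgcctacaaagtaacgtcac
Eif4a2, chr16:23107218-23107467, plus strand: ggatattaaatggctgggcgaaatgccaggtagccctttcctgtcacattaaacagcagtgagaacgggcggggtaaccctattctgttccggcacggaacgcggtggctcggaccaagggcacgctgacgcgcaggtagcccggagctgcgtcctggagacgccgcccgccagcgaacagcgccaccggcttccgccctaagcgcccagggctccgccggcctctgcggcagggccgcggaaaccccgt
Eif3l, chr15:79074973-79075222, plus strand: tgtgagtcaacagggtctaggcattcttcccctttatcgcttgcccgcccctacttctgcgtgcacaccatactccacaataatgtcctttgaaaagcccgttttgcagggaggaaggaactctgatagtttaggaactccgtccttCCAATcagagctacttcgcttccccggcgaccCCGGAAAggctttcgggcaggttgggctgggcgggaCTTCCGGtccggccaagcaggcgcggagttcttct

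The Eif4a1 window holds an E-box and a pair of CCAAT boxes, the Eif3l window holds a CCAAT box and both ETS forms, and the Eif4a2 window holds none of the 8. 40 members had a promoter in the table, among 27025 genes. In this paragraph all genes means those 27025, taken with no filter on level, so the members are set against an unlike group. The E-box CACGTG, the letters bound by Myc and its relatives, was present in 6 of the 40 (15%, against 6.05% of all genes), among them Eif4h, Eif3f, Eif3k and Eif5a2. The core CCGGAAG of ETS factors was present in 9 (22.5%, against 7.05%), among them Eif3c, Eif3d and Eif3m, and the variant CCGGAAA in 6 (15%, against 2.95%). The rest were CCAAT in 12 (30%, against 34.5%), TATAAA in 3 (7.5%, against 13%), and 3 others in 0 each, namely YY1 (AAGATGGCG, in 0.607% of all genes), the cyclic AMP response element (TGACGTCA, in 1.62%) and the composite site of ATF4 with C/EBP (TGATGCAAT, in 0.185%). These are matches of letters in a window and were not set against the levels.

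The brightest Eif4a2 probe set stood at 8.45 in ConA+PLL cells at 24 h, at 9.80 in ConA and at 9.91 in PLL cells, against 9.98 in naive cells. At 3 h it was 9.55 in ConA+PLL, 10.18 in ConA and 10.18 in PLL cells, against 9.84 in naive cells at 0 h. It was the lowest of the 4 arrays under ConA+PLL at each time, 2.54-fold lower than ConA at 24 h and 1.55-fold lower at 3 h. The 2 other Eif4a2 probe sets kept the direction with smaller sizes. The dimmest stood at 6.44 in ConA+PLL and 7.03 in ConA cells at 24 h (-0.58), and the middle one at 8.16 in ConA+PLL and 8.47 in ConA cells (-0.31). Averaged over its 3 probe sets, Eif4a2 was -0.75 in that comparison and -0.33 at 3 h, which is short of 1.5-fold.

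Eif4a1 had 2 probe sets that went apart. The bright one stood at 13.13 in ConA+PLL, 13.20 in ConA and 13.40 in PLL cells at 24 h, against 13.24 in naive cells, and ran from 12.95 to 13.40 over all 8 arrays. The dimmer one stood at 6.82 in ConA+PLL, 6.13 in ConA and 6.30 in PLL cells at 24 h, against 6.16 in naive cells, and at 7.32 in ConA+PLL, 6.74 in ConA and 6.37 in PLL cells at 3 h, against 6.62 in naive cells at 0 h. So ConA+PLL minus ConA at 24 h was -0.07 on one probe set and 0.69 on the other, and the direction for Eif4a1 depends on the probe set.

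RefSeq places small nucleolar RNA genes inside several members: 5 inside Eif4a2, 3 inside Eif4a1 and 1 each inside Eif2ak3, Eif3a, Eif4g2 and Eif5. Of these, Snora28 (in Eif5) and Snora19 (in Eif3a) have a probe set of their own. Snora28 stood at 6.89 in ConA+PLL, 8.15 in ConA and 8.48 in PLL cells at 24 h, against 8.22 in naive cells, while its host Eif5, the GTPase activator of eIF2, stood at 8.71 in ConA+PLL, 8.81 in ConA and 8.84 in PLL cells, against 8.60 in naive cells. Snora19 was dim at 24 h (3.32 in ConA+PLL, 3.75 in ConA and 3.64 in PLL cells, against 3.91 in naive cells), while Eif3a stood at 9.29 in ConA+PLL, 9.08 in ConA and 8.77 in PLL cells, against 8.83 in naive cells. Over 73 Snora and Snord genes, a set looked at after the Eif4a2 values were seen, the median of ConA+PLL minus ConA was -0.42 at 24 h (12 above 0) and -0.35 at 3 h (5 above 0). Of all genes 61.6% and 47.1% lay above 0 there, with medians of 0.08 and -0.02. Against naive cells at 0 h, 66 of the 73 lay above 0 in ConA, 65 in PLL and 30 in ConA+PLL cells at 3 h. Against naive cells at 24 h, 15 did in ConA+PLL cells. Whether such RNAs contribute to the signal of the Eif4a1 and Eif4a2 probe sets was not tested.

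The 2 other eIF4A genes were dim. Eif4a3 stood at 3.90 in ConA+PLL, 3.89 in ConA and 4.20 in PLL cells at 24 h, against 4.68 in naive cells, and the highest level of Eif4a3l1 was 4.33. The helper Eif4b, which raises helicase activity and is a target of S6 kinase, stood at 10.00 in ConA+PLL, 9.58 in ConA and 9.46 in PLL cells at 24 h, against 9.50 in naive cells. ConA+PLL was thus 0.42, 0.54 and 0.49 above ConA, PLL and naive cells, and for the related Eif4h it was 0.39, 0.45 and 0.54 above them. Neither passed 1.5-fold. The scaffold genes measured, Eif4g2 and Eif4g3, moved least of all members, with spans of 0.16 and 0.25 over the 8 arrays.

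**Figure D4:**
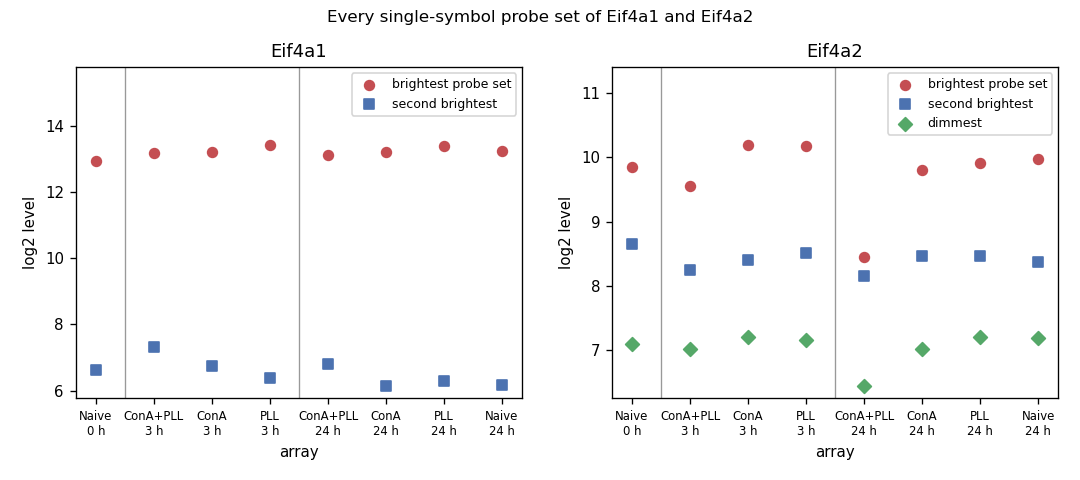
Log2 level of each single-symbol probe set of Eif4a1 (left) and Eif4a2 (right) on each array (1 array per group), with vertical lines between 0 h, 3 h and 24 h. All 3 Eif4a2 probe sets are lowest under ConA+PLL at 24 h (8.45, 8.16 and 6.44), whereas of the Eif4a1 probe sets only the dimmer one is highest under ConA+PLL at 24 h among the arrays of that time (6.82).

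Among the cap-binding factors, Eif4e itself was the one that rose early. It stood at 7.94 in ConA+PLL, 7.34 in ConA and 7.42 in PLL cells at 3 h, against 7.31 in naive cells at 0 h. Its levels at 24 h were 7.08 in ConA+PLL, 6.88 in ConA and 7.12 in PLL cells, against 6.81 in naive cells. The early rise was thus not kept, and ConA+PLL at 24 h minus ConA+PLL at 3 h was -0.87. Its relatives differed. Eif4e3, an atypical cap-binding relative, was lowest on the ConA+PLL array at 3 h (5.22, with 5.73 in ConA and 5.74 in PLL cells, against 5.99 in naive cells at 0 h) and lay between 5.70 and 5.79 on the 24 h arrays. Eif4e2, a repressor of capped mRNAs, stayed within 6.39 to 6.73.

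Of the eIF4E-binding proteins, Eif4ebp1 stood at 5.46 in ConA+PLL, 5.46 in ConA and 5.41 in PLL cells at 24 h, against 5.81 in naive cells. At 3 h it was 5.65 in ConA+PLL, 5.30 in ConA and 5.52 in PLL cells, against 5.41 in naive cells at 0 h. Eif4ebp2, the 4E-BP known to be abundant in lymphocytes, differed more between times than between treatments. It stood at 7.69 in ConA+PLL, 7.83 in ConA and 8.06 in PLL cells at 3 h, against 7.73 in naive cells at 0 h. At 24 h it was 8.20 in ConA+PLL, 8.27 in ConA and 8.31 in PLL cells, against 8.46 in naive cells, so that naive cells at 24 h were 0.72 above those at 0 h. Eif4enif1, which carries eIF4E into the nucleus, was 0.56, 0.51 and 0.63 higher in ConA+PLL cells than in ConA, PLL and naive cells at 24 h, past 1.5-fold only in the last.

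eIF2 and its exchange factor set how much initiator tRNA reaches the ribosome. Eif2s2, the beta subunit, was highest on the ConA+PLL array at 3 h (5.86, with 5.35 in ConA and 5.21 in PLL cells, against 5.21 in naive cells at 0 h). By 24 h it stood at 5.02 in ConA+PLL, 4.91 in ConA and 5.13 in PLL cells, against 5.28 in naive cells. Eif2a, a factor outside eIF2 that can also bring initiator tRNA, stood at 7.01 in ConA+PLL, 6.51 in ConA and 6.22 in PLL cells at 24 h, against 6.35 in naive cells. The 3 h levels were 6.51 in ConA+PLL, 6.36 in ConA and 6.05 in PLL cells, against 6.58 in naive cells at 0 h.

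The exchange factor eIF2B has 5 subunit genes, and 4 of them were above 0 in ConA+PLL minus ConA at 24 h (median 0.32), where 61.6% of all genes were. The exception was Eif2b3, at -0.04. Eif2b1, the regulatory alpha subunit, stood at 5.88 in ConA+PLL, 5.24 in ConA and 5.52 in PLL cells at 24 h, against 5.23 in naive cells. At 3 h it was 4.96 in ConA+PLL, 4.97 in ConA and 4.72 in PLL cells, against 4.89 in naive cells at 0 h. All 24 h arrays were thus above all earlier ones, with ConA+PLL the highest, and the ConA+PLL array at 24 h was 0.91 above that at 3 h. Eif2b2, the beta subunit, was 6.48 in ConA+PLL, 6.16 in ConA and 6.05 in PLL cells, against 6.06 in naive cells at 24 h, and at 3 h 6.06 in ConA+PLL, 5.92 in ConA and 5.70 in PLL cells, against 6.09 in naive cells at 0 h. Eif2b5, the catalytic epsilon subunit, was 5.61 in ConA+PLL, 5.29 in ConA and 5.52 in PLL cells, against 5.18 in naive cells at 24 h, and at 3 h 5.63 in ConA+PLL, 5.38 in ConA and 5.32 in PLL cells, against 5.42 in naive cells at 0 h. In both genes the ConA+PLL array was the highest of the 24 h arrays. Eif2b3, the gamma subunit, was 4.69 in ConA+PLL, 4.73 in ConA and 4.96 in PLL cells at 24 h, against 4.59 in naive cells, and 4.62 in ConA+PLL, 4.71 in ConA and 4.69 in PLL cells at 3 h, against 4.30 in naive cells at 0 h. Eif2b4, the delta subunit, was dim, with 4.31 in ConA+PLL, 3.80 in ConA and 3.91 in PLL cells at 24 h, against 3.59 in naive cells, and 3.69 in ConA+PLL, 3.86 in ConA and 3.31 in PLL cells at 3 h, against 4.07 in naive cells at 0 h.

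The 4 eIF2 kinases each sense another stress. None passed 1.5-fold in ConA+PLL minus ConA, at 3 h (3.54% of all genes were higher and 5.5% lower) or at 24 h (5.19% and 1.95%). In ConA+PLL cells at 3 h, Eif2ak2 was lower against PLL cells (-0.68, background 8.7%). Eif2ak3 was lower there against naive cells at 0 h (-0.90, background 6.35%). Eif2ak3, which encodes PERK, the sensor of the endoplasmic reticulum, was high only in naive cells at 0 h (6.78), with 5.89 in ConA+PLL, 6.31 in ConA and 6.18 in PLL cells at 3 h. At 24 h it was 5.85 in ConA+PLL, 5.85 in ConA and 5.95 in PLL cells, against 5.69 in naive cells. Eif2ak1, which encodes the heme-regulated kinase HRI, stood at 7.29 in ConA+PLL, 7.22 in ConA and 6.94 in PLL cells, against 6.86 in naive cells at 24 h, and at 3 h at 7.26 in ConA+PLL, 7.09 in ConA and 7.18 in PLL cells, against 7.40 in naive cells at 0 h. Eif2ak2, which encodes PKR, the sensor of double-stranded RNA, was lowest under ConA+PLL at 3 h (3.97, with 4.16 in ConA and 4.65 in PLL cells, against 4.25 in naive cells at 0 h) and highest under ConA+PLL at 24 h (4.70, with 4.48 in ConA and 4.39 in PLL cells, against 4.32 in naive cells). Eif2ak4, which encodes GCN2, the amino acid sensor, was 4.33 in ConA+PLL, 4.10 in ConA and 4.26 in PLL cells at 24 h, against 4.28 in naive cells, and 4.26 in ConA+PLL, 4.25 in ConA and 4.03 in PLL cells at 3 h, against 4.34 in naive cells at 0 h. At such levels Eif2ak2 and Eif2ak4 lie close to the mark of dim signal.

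**Figure D5:**
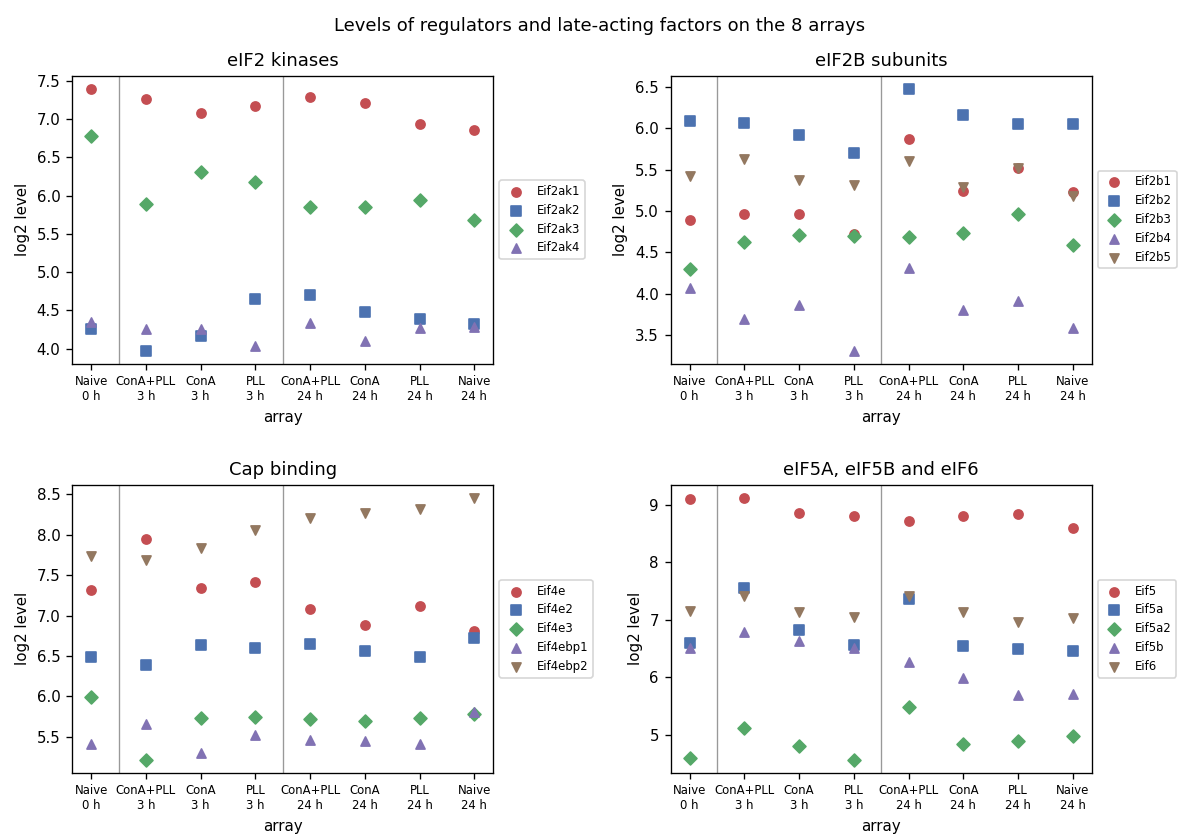
Log2 levels of the eIF2 kinases, the eIF2B subunits, the cap-binding factors with 2 of their binding proteins, and the late-acting factors (panels) on the 8 arrays (1 array per group), with lines between 0 h, 3 h and 24 h. Eif4e is highest under ConA+PLL at 3 h (7.94), Eif5a under ConA+PLL at each time (7.56 and 7.36), Eif2b1 under ConA+PLL at 24 h (5.88), and Eif2ak3 in naive cells at 0 h (6.78).

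Among the factors that act late, Eif5a followed ConA+PLL at each time. eIF5A helps the ribosome through difficult stretches and termination, and is the carrier of hypusine, a modified lysine. It stood at 7.56 in ConA+PLL, 6.82 in ConA and 6.57 in PLL cells at 3 h, against 6.60 in naive cells at 0 h. At 24 h it was 7.36 in ConA+PLL, 6.55 in ConA and 6.50 in PLL cells, against 6.46 in naive cells. Both ConA+PLL levels lay above the other 6, of which the highest was 6.82, and the difference from ConA was 1.67-fold at 3 h and 1.76-fold at 24 h. Its paralog Eif5a2 was also highest under ConA+PLL at 24 h, with 5.48 in ConA+PLL, 4.84 in ConA and 4.89 in PLL cells, against 4.98 in naive cells.

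Eif6, which keeps the ribosomal subunits apart until the large one is mature, differed by less than 1.5-fold in each comparison. It stood at 7.41 in ConA+PLL, 7.13 in ConA and 7.04 in PLL cells at 3 h, against 7.16 in naive cells at 0 h, and at 7.41 in ConA+PLL, 7.13 in ConA and 6.96 in PLL cells at 24 h, against 7.04 in naive cells. Eif5b, the GTPase of subunit joining, differed more between times. It was 6.79 in ConA+PLL, 6.62 in ConA and 6.51 in PLL cells at 3 h, against 6.52 in naive cells at 0 h, and 6.26 in ConA+PLL, 5.99 in ConA and 5.70 in PLL cells at 24 h, against 5.71 in naive cells. No 24 h level reached the lowest of the earlier ones.

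eIF1 and eIF1A help to find the start codon, and 4 genes listed with them were measured. At 3 h Eif1a alone of the 4 passed 1.5-fold. In ConA+PLL cells it was higher against ConA (0.70, background 3.54%) and naive cells at 0 h (0.74, background 4.63%). Against PLL cells it was not past it (0.37). It stood at 7.10 in ConA+PLL, 6.40 in ConA and 6.73 in PLL cells at 3 h, against 6.37 in naive cells at 0 h. At 24 h it was 6.68 in ConA+PLL, 6.33 in ConA and 6.06 in PLL cells, against 6.31 in naive cells. There Eif1a (0.62) and Eif1ad (0.59) were higher in ConA+PLL minus PLL (2 of 4, background 6.58%). The X-linked Eif1ax, by contrast, was highest in PLL cells at 3 h (7.96, with 7.83 in ConA+PLL and 7.62 in ConA cells, against 7.58 in naive cells at 0 h).

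Members also differed between the naive arrays. In naive cells at 24 h compared with those at 0 h, 5 members fell (10.2%, against 5.91% of all genes) and 2 rose (4.08%, against 9.12%), with 21 above 0 (54.4% of all genes). The 5 became 2 under quantile normalization and 8 with centring. Those that fell were Eif2ak3 (-1.10), Eif5b (-0.81), Eif3a (-0.62), the pseudogene Eif1-ps3 (-0.61) and Eif3e (-0.59), and those that rose were the dim Eif4a3 (0.80) and Eif4ebp2 (0.72). The 7 T cell markers all lay above 0 between the same arrays (median 0.69, 4 past 1.5-fold). Of the 10 markers of other cell types 4 did, with Cd79b at 0.69, Ncr1 at -0.70 and Itgax at -0.89. Ncr1 and Itgax stayed below the mark of dim signal on every array. Hspa1b stood at 3.15 at 24 h, against 8.47 at 0 h, and Hspa1a at 3.41, against 7.91. The part of these in the members' differences was not tested. From 3 h to 24 h the members' median was -0.04 in ConA, -0.03 in PLL and 0.07 in ConA+PLL cells, where that of all genes was 0.04, 0.04 and 0.15, and 23, 22 and 27 members lay above 0 (54.7%, 54.6% and 64.8% of all genes). With centring the ConA+PLL median was -0.23, with 1 member higher and 12 lower. Between ConA+PLL at 24 h and ConA+PLL at 3 h, 4 rose (8.16%, against 17.7%), led by Eif2b1, Eif2d (0.74, a factor of alternative initiation and recycling) and the dim Eif2ak2 (0.73), and 4 fell (8.16%, against 5.08%), namely Eif3j1, Eif4a2 (-1.09), Eif4e and Eif2s2 (-0.84). In PLL cells 2 rose (background 7%) and 3 fell (background 4.49%), and in ConA cells 2 fell (background 5.97%). The 1 member past 1.5-fold upward in ConA cells (background 11.5%) was the noncoding Eif2c5, which stayed below the mark of dim signal and passed the filter only through its level in ConA cells at 24 h (3.66).

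Other genes of the pathway were taken from fixed lists. Of 14 other initiation and recycling factors, 1 rose and 0 fell in ConA+PLL minus ConA at 24 h (7.14%, against 5.19% of all genes higher), with a median of 0.09 (-0.04 with centring). It was Pabpc4, a poly(A)-binding protein, at 4.89 in ConA+PLL and 3.93 in ConA cells (0.96). Its level in ConA cells was below the mark of dim signal, and at 3 h its difference was -0.20. At 3 h, 0 of the 14 passed 1.5-fold (3.54% of all genes were higher and 5.5% lower). The highest were the helicase Ddx3x (0.53) and the eIF5 mimic Bzw1 (0.42). Of 11 measured regulators in the mTORC1 branch, 1 rose at 3 h (9.09%, against 3.54% of all genes). It was Larp1, which holds back the mRNAs of the translation machinery, at 8.56 in ConA+PLL and 7.92 in ConA cells (0.64). At 24 h 0 of the 11 rose (background 5.19%), and Mknk2, a kinase of eIF4E, was highest (0.56). A further list of 10 genes held elongation factors and also Eef2k, Dhps, Dohh and Eef1e1, which are not such factors. Of these 10, 1 rose at 3 h (background 3.54%). It was Eef1e1, an accessory protein of the tRNA synthetase complex, at 8.36 in ConA+PLL and 7.42 in ConA cells (0.94). At 24 h 9 of the 10 lay above 0 (61.6% of all genes did), with a median of 0.20 (0.07 with centring). There 0 were past 1.5-fold (5.19% of all genes were higher and 1.95% lower). Dhps, which begins the making of hypusine on eIF5A, was 0.43 higher at 24 h.

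Of 10 measured genes of the integrated stress response, 0 passed 1.5-fold in ConA+PLL minus ConA at 24 h. Of all genes 5.19% were higher and 1.95% lower there, and a list of 10 is too short to tell its count from those shares. The median was 0.00 (-0.13 with centring). At 3 h 1 of the 10 was lower (background 5.5%), the dim Sesn2 (-0.67). In naive cells at 24 h compared with 0 h, 3 of the 10 were lower (background 5.91%) and 1 was higher (background 9.12%). Those lower were Ppp1r15a, the stress-induced eIF2 phosphatase subunit (5.42 at 24 h, against 6.88 at 0 h), the transcription factor Atf4 (6.99 at 24 h, against 8.02 at 0 h) and its partner Ddit3 (5.00 at 24 h, against 5.85 at 0 h), and the higher one was Trib3 (6.17 at 24 h, against 5.35 at 0 h). Eif2ak3 differed between the same arrays by -1.10. Ppp1r15a (-0.85) and Atf4 (-0.77) were also lower in PLL cells at 3 h than in naive cells at 0 h (2 of 10, background 2.88%). In ConA+PLL minus PLL at 3 h they were higher (0.74 and 0.64, 2 of 10, background 6.09%). From 3 h to 24 h Ppp1r15a differed by -1.27 in ConA, -0.73 in PLL and -1.56 in ConA+PLL cells. Atf4 differed by -0.96, -0.21 and -1.09. Whether these differences are linked was not tested.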

How the data were processed

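RNA of CD3 T cells was hybridised to 8 Affymetrix Mouse Gene 2.0 ST arrays, 1 per group. The authors normalized the arrays with RMA (robust multi-array average), and the deposited log2 values, 1 per probe set and array, were used as given. The log base was read from RMA and from the range of the values. Not given in the sources used here are the RMA version, the genome build and which arrays were normalized together. Array values are relative to the other probes, so the amount of RNA per cell was not measured, and the number of arrays limits the precision.

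The platform annotation named the probe sets, and in it 23521 of 41345 had 1 symbol, 1820 had several and 16004 had none. A gene passed when its highest value reached the table's median (3.62). Differences and counts were computed with Python 3.11.15, numpy 2.4.6 and pandas 2.3.3, checked on simulated data, and drawn with matplotlib 3.10.9. All 51 members were matched to RefSeq (GRCm38.p6) by symbol.

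The members, gene lists and comparisons were chosen with earlier results of these data known. All members could be named, with every array's value for the 12 of widest span, for those whose probe sets disagree and for known regulators, and in each comparison and list the 3 highest and 3 lowest. The alternatives were quantile normalization, centring of each array on its median, a mean over a gene's probe sets, other filters, a 2-fold threshold, other control arrays and, added after seeing the data, a filter at the mark of dim signal and leaving out Eif2c5 and Eif1-ps3.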

Additional observations from a re-analysis of the deposited data

How the results depend on the processing

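All 75 differences of a member past 1.5-fold kept their sign under quantile normalization, centring and the mean over probe sets. For centring and the probe set mean this was largely fixed in advance. Centring moves all differences of a comparison by 1 amount, and the array medians it used ran only from 5.03 to 5.33. The mean over probe sets alters only the 3 members with several. Medians near 0 did change sign: that of ConA+PLL at 24 h and 3 h with centring (0.07, then -0.23), and under quantile normalization those of ConA minus naive at 24 h (0.06, then -0.01), ConA at 3 h minus naive at 0 h (-0.02, then 0.0059) and naive cells over time (-0.03, then 0.01). With naive at 0 h as control, that of ConA at 24 h was -0.02. Counts near the threshold depended on the scaling. Quantile normalization gave 1 member lower in ConA+PLL minus PLL at 3 h, 3 and 4 higher in ConA+PLL minus ConA and minus PLL at 24 h, 3 higher (median 0.22) minus naive, and 2 lower in naive cells at 24 h compared with 0 h. Centring, which turned the all-gene median at 24 h to -0.05, -0.07 and -0.06, gave 2, 3 and 2 higher against ConA, PLL and naive cells (medians 0.14, 0.23 and 0.23) and 0.18 for the difference of ConA effects. At 3 h it gave 0 lower against ConA, 0 lower against PLL (median 0.34) and 8 higher against naive cells at 0 h. Over time it gave 8 lower in naive cells, 5 lower in ConA (median -0.16), 1 higher in PLL, and 1 higher and 12 lower in ConA+PLL cells (median -0.23).

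The mean over probe sets gave 0 lower against ConA and 1 lower against PLL at 3 h. Without a filter, 1 was lower in ConA at 3 h minus naive at 0 h, and the median of ConA+PLL minus naive at 24 h was 0.26. The filter on the mean, that at the dim mark, and leaving out Eif2c5 and Eif1-ps3 each gave 0 higher between ConA at 24 h and 3 h. At 2-fold every count was 0, except 1 lower for ConA+PLL minus ConA and minus PLL at 24 h (Eif4a2) and for naive culture (Eif2ak3), and 2 lower (Eif4a2 and Eif3j1) for ConA+PLL minus naive at 24 h and between ConA+PLL at 24 h and 3 h. With PLL at 3 h as control the medians were 0.23 for ConA+PLL and 0.088 for ConA at 3 h (main value -0.02). With naive at 0 h as control at 24 h, the median was 0.23 for ConA+PLL, with 1 higher and 2 lower for ConA and 2 higher and 3 lower for PLL. The causes were not tested. No paired analysis was possible because each group held 1 array and no test was run. No array could be left out for the same reason.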
